A study of Homo sapiens and Mus musculus with 12 samples.

Results

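The 29 genes examined here encode enzymes and transporters of heme synthesis, receptors for iron and erythropoietin, and proteins of the red cell membrane. They were taken as a named list from the 20033 protein-coding genes of GENCODE release 44 on GRCh38, and each was given its gene body and 10 kb on either side as its window. Binding of LSD1, GFI1 and SPI1 had been mapped by ChIP-seq in a pair of human leukemia lines, THP1 and K562, and the called peaks of 5 libraries were used. In Cas9-expressing K562 cells with a non-targeting sgRNA (sg-NT), LSD1 and GFI1 were precipitated. In Cas9-expressing K562 cells with an sgRNA against LSD1 (sg-LSD1), only GFI1 was. In THP1 cells, which received no sgRNA for these libraries, GFI1 and SPI1 were precipitated. Each ChIP used 5 μg antibody. With a single library per condition, there were no replicates to compare, and libraries were not tested against each other. The sg-LSD1 cells were 1 edited line in which the LSD1 protein was depleted rather than fully absent, and whether it grew from a clone is not given in the sources used here. In such bulk libraries, a site bound in fewer cells and a site bound more weakly in all cells cannot be told apart. RNA was not measured in these libraries, so whether the 29 genes were expressed was not examined.

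Heme is built by a chain of enzymes that starts and ends in mitochondria, and red cell precursors run this chain at a high rate to supply hemoglobin. The red cell keeps its shape through a skeleton of spectrin tetramers and short actin filaments, which is tied to the anion exchanger and the glycophorins in the lipid bilayer. LSD1 is a histone demethylase that is brought to DNA by repressors such as GFI1 and GFI1B, and SPI1 is a master regulator of myeloid cells. K562 cells come from a chronic myeloid leukemia and carry erythroid features, whereas THP1 cells are monocytic.

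The sites that the results turn on are shown first, as the reference sequence of up to 100 bases around the summit of a peak (GRCh38, 5′ to 3′). The ADD1, RHAG, ERMAP and ADD2 sites were those with a GFI1 peak in sg-NT K562 cells. The ABCB10, EPB41, SPTB and GYPE sites had strong LSD1 peaks by −log10 p, the measure of the peak caller that grows with the strength of a peak. The GFI1 site of ANK1 and the LSD1 site of DMTN, which was stronger than that of GYPE, are not shown. The stretch at ADD1 is 77 bases long because it stops before an annotated UTR. Capitals mark the cores AGATAA and TGATAA, which GATA factors bind, and the GFI1 core AATCAC, each on either strand.
ADD1, GFI1 summit in intron 1, chr4:2867895-2867971, plus strand: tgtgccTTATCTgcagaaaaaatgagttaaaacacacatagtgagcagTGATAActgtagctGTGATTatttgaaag
RHAG, GFI1 and LSD1 summit in the upstream flank, chr6:49646434-49646533, plus strand: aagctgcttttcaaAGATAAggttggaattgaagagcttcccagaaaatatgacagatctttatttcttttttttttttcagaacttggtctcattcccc
ERMAP, GFI1 summit in intron 1, chr1:42825255-42825354, plus strand: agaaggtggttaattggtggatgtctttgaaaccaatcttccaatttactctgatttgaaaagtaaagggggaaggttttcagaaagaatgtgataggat
ADD2, GFI1 summit in the upstream flank, chr2:70772940-70773039, plus strand: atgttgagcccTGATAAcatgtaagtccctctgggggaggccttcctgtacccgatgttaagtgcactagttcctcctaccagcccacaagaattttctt
ABCB10, LSD1 summit in intron 1, chr1:229555276-229555375, plus strand: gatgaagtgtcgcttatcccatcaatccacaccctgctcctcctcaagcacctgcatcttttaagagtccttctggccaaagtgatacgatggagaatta
EPB41, LSD1 summit in the upstream flank, chr1:28883968-28884067, plus strand: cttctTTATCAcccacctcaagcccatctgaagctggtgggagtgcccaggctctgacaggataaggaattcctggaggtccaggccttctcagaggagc
SPTB, LSD1 summit in intron 1, chr14:64841210-64841309, plus strand: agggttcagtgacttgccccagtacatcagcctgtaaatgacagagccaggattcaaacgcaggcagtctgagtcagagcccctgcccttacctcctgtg
GYPE, LSD1 summit in intron 1, chr4:143885003-143885102, plus strand: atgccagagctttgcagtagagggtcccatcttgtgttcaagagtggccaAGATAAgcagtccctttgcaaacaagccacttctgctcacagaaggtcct
At ADD1, the 77 bases held both GATA cores and the GFI1 core, whereas the stretches at ERMAP, ABCB10 and SPTB held neither kind.

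LSD1 peaks were called at most of these genes. In sg-NT K562 cells, 21 of the 29 genes (72.4%, 95% Wilson interval 54.3 to 85.3) had at least 1 LSD1 peak, against 24.3% of all protein-coding genes. Among all protein-coding genes of the same length, the share was 25.8%, so the 29 genes had a peak 2.81 times as often. The intervals given for shares cover counting error only. GFI1 peaks in the same cells were called at 5 of the 29 genes (17.2%, interval 7.6 to 34.5), against 2.14% of all protein-coding genes and 2.08% of those of the same length. In sg-LSD1 K562 cells, 0 of the 29 genes had a GFI1 peak, where a share of up to 11.7% lies within the interval and 0.704% of all protein-coding genes had one. THP1 cells gave GFI1 peaks at 4 genes (13.8%, interval 5.50 to 30.6), against 13.9% of all protein-coding genes. SPI1 peaks in THP1 cells were called at 2 genes (6.90%, interval 1.91 to 22.0), against 7.48%. The 29 genes thus stood above the length-matched share in both sg-NT K562 lists and close to it in both THP1 lists. They were chosen with earlier results of these data known, so these shares describe the list and do not test it.

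**Figure D1:**
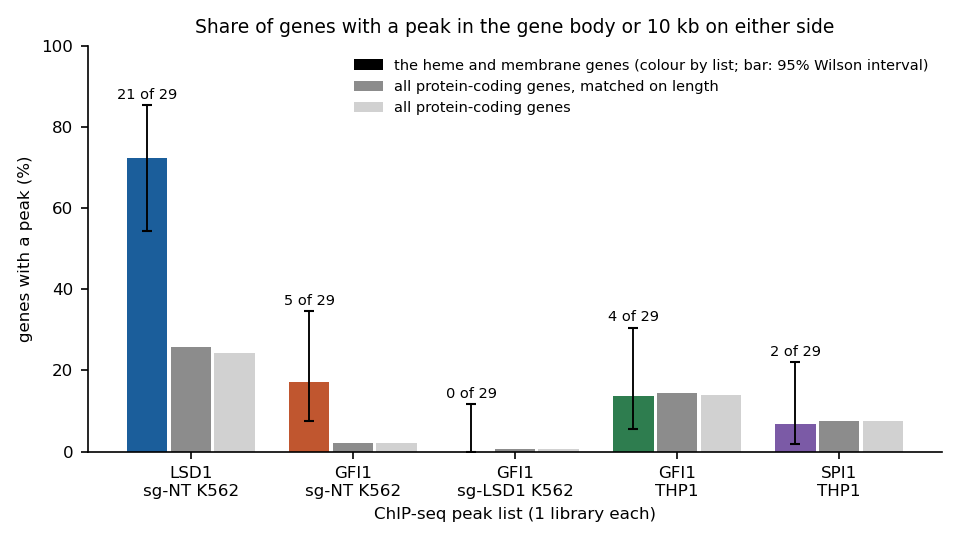
Share of genes with a peak (%, vertical axis starting at 0) in each of the 5 peak lists. Coloured bars show the 29 heme synthesis and red cell membrane genes with their 95% Wilson interval, dark grey bars all protein-coding genes matched on length, and light grey bars all protein-coding genes. The coloured bar reaches 72.4% for LSD1 beside a length-matched 25.8%, and 13.8% for GFI1 in THP1 cells beside a length-matched 14.3%.

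The 21 genes held 42 LSD1 peaks. Of the 29 genes, 11 (37.9%) had 2 or more LSD1 peaks, and none had more than 4. Over all protein-coding genes, 7.49% had 2 or more, a share that was not matched on length. The median −log10 p of the 42 peaks was 14.3, beside 11.3 for the LSD1 peaks in the window of any protein-coding gene. The lengths of the genes with and without a peak overlapped. The 21 genes with an LSD1 peak had a median length of 31665 bp (4626 to 243522), and the 8 without one a median of 40317.5 bp (13982 to 100564). The 8 genes without an LSD1 peak were ALAS2, UROS, FECH, SLC25A38, TFRC, TMOD1, KEL and XK, and these had no peak in the other 4 lists either. ALAS2 and XK lie on the X chromosome, where peaks were scarce. The 5 lists held between 0 and 24 peaks on it, and an LSD1 peak was called at 12 of its 859 protein-coding genes (1.40%). Without this chromosome, 21 of 27 genes (77.8%) had an LSD1 peak, against a length-matched 25.8%.

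**Figure D2:**
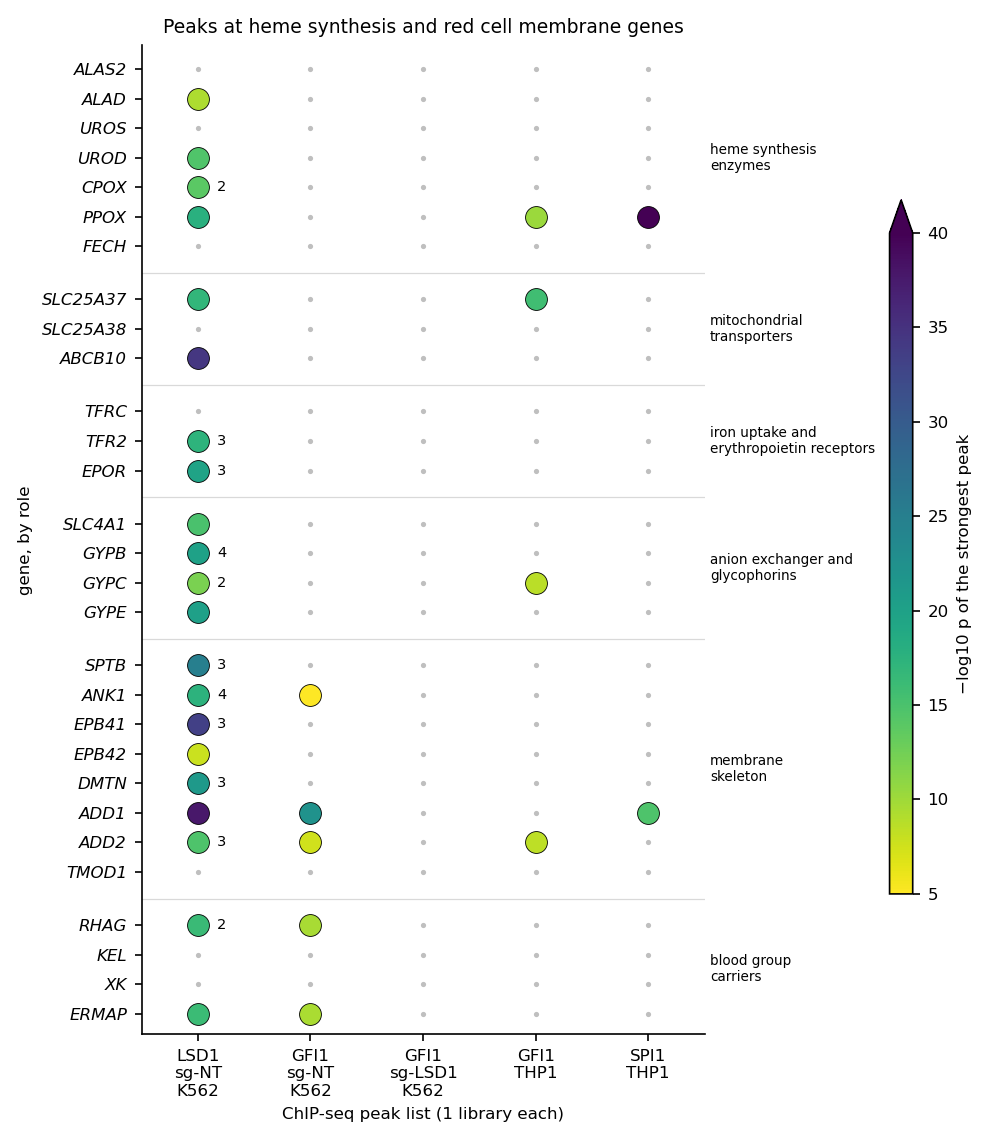
Peaks at each of the 29 genes (rows, grouped by role) in the 5 peak lists (columns, 1 library each). A filled circle is a gene with a peak, coloured by the −log10 p of its strongest peak, with the number of peaks beside it where there were 2 or more, and a small grey dot is a gene with none. The LSD1 column is filled for 21 genes, the sg-LSD1 column for 0.

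Of the 7 enzymes of heme synthesis, 4 had an LSD1 peak. PPOX, which oxidizes protoporphyrinogen, had the strongest of them, at chr1:161166391-161166992 with its summit 150 bp downstream of the start in the 5′ UTR of exon 1. It had a fold enrichment of 9.98 over background and a −log10 p of 17.9, from 17 fragments over a local background of 0.803. UROD, the decarboxylase of uroporphyrinogen, had an LSD1 peak in intron 1, 526 bp from its start, with 8.28-fold enrichment (−log10 p 14.6). CPOX, the coproporphyrinogen oxidase, had a pair of LSD1 peaks, 1 in intron 5 with a −log10 p of 14.0 and a weaker one 199 bp upstream of its start with 8.03. At PPOX, UROD and CPOX, an LSD1 summit thus lay within 1000 bp of the gene's start. The peak counted for ALAD, which condenses aminolevulinate into porphobilinogen, was less clearly its own. It lay 9504 bp upstream of ALAD, but 41 bp from the start of the neighbouring gene C9orf43, and had a −log10 p of 9.26. No LSD1 peak was called at ALAS2, the erythroid enzyme of the first step, at UROS or at FECH, which inserts the iron. The nearest LSD1 peak lay 1195829 bp from UROS and 189931 bp from FECH. No GFI1 peak of K562 cells was called at any of the 7 enzymes, where a share of up to 35.4% lies within the interval. The length-matched share was only 1.60% in sg-NT and 0.357% in sg-LSD1 cells.

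ABCB10 and SLC25A37 act together in the inner mitochondrial membrane, where SLC25A37 (mitoferrin 1) imports iron and ABCB10 stabilizes it. ABCB10 had 1 of the strongest LSD1 peaks of the gene set, at chr1:229554857-229555514 in intron 1, 3382 bp from the start, with 15.2-fold enrichment (−log10 p 34.4). It held 31 fragments over a background of 1.11. SLC25A37 had an LSD1 peak 1064 bp upstream of its start, with 9.70-fold enrichment (−log10 p 17.0). The nearest GFI1 peak of sg-NT K562 cells lay 34479 bp from SLC25A37, outside its window. SLC25A38, which carries glycine for the first step of heme synthesis, had no peak, and the nearest LSD1 peak was 228794 bp away.

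EPOR and TFR2, the erythropoietin receptor and a transferrin receptor that partners with EPOR, had 3 LSD1 peaks each. The strongest at EPOR lay at chr19:11382612-11383284 in intron 2, 1356 bp from the start, with 11-fold enrichment (−log10 p 19.7). A further EPOR peak had its summit 63 bp upstream of the start and a −log10 p of 7.61. The last EPOR peak lay in the downstream flank, 325 bp from the start of SWSAP1. At TFR2, the strongest LSD1 peak lay in intron 17 with 9.41-fold enrichment (−log10 p 17.3), and the weakest, with 7.77, had its summit 1 bp from the start. The nearest start to the strongest TFR2 peak and to the peak of its downstream flank was that of MOSPD3, at 13761 and 438 bp. TFRC, the receptor that brings most iron into red cell precursors, had no peak in its window. The LSD1 peak nearest to TFRC lay 26138 bp outside the gene, and TFRC was the only gene that a window of 50 kb added to the 21.

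All 4 genes of the anion exchanger and the glycophorins had an LSD1 peak (interval 51.0 to 100), against a length-matched 25.7%. SLC4A1, the anion exchanger itself (band 3), had a peak of 19 fragments at chr17:44266272-44267486 in intron 1, with 7.75-fold enrichment (−log10 p 15.1). GYPC, which ties the skeleton to the bilayer through protein 4.1, had a pair of LSD1 peaks in intron 1 with a −log10 p of 12.0 and 10.1. At GYPB and GYPE, glycophorins that arose by duplication, the position of the reads is uncertain. GYPB had 4 LSD1 peaks, the strongest of them 43 bp upstream of its start with 10.4-fold enrichment (−log10 p 19.95). GYPE had 1 LSD1 peak in intron 1, with 10.2-fold enrichment (−log10 p 20.2). The 50 bases around these 5 summits occurred 2 or 3 times each in the genome, whereas those around the GYPC summits occurred once. Without GYPB and GYPE, 19 of 27 genes (70.4%) had an LSD1 peak.

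The membrane skeleton had LSD1 peaks at 7 of 8 genes (87.5%, interval 52.9 to 97.8), against a length-matched 29.02%. These 8 genes held 18 of the 42 peaks, a count that was not matched on length. They include ANK1, the longest of the 29 genes with 243522 bp. ADD1, the alpha subunit of adducin, which caps actin filaments where spectrin attaches, had the strongest LSD1 peak of the gene set. It lay at chr4:2867755-2868387 in intron 1, 24135 bp from the start, with 16.3-fold enrichment (−log10 p 37.7), and ranked 231 of the 6548 LSD1 peaks. EPB41, which encodes protein 4.1, had a similar peak at chr1:28883361-28884404, with 16.4-fold enrichment (−log10 p 33.4). That peak lay 3074 bp upstream of the annotated gene and 30552 bp upstream of the start of its canonical transcript. SPTB, the beta chain of spectrin, had 3 LSD1 peaks. The strongest, at chr14:64841070-64841587 in intron 1, had 12.2-fold enrichment (−log10 p 25.1), and the others lay 71 and 705 bp upstream of the start with 15.8 and 5.35. DMTN (dematin), which bundles actin, had 3 LSD1 peaks with a −log10 p of 21.2, 10.8 and 6.45. Its strongest peak lay in the downstream flank, 262 bp from the start of FHIP2B, and the others in intron 1. ANK1, the ankyrin that links spectrin to band 3, had 4 LSD1 peaks with a −log10 p between 6.45 and 17.5, the strongest of them 46 bp from the start of its canonical transcript. ADD2, the beta subunit of adducin, had 3, all in intron 1, with a −log10 p between 5.77 and 14.8. EPB42, which binds to band 3 and ankyrin, had a single LSD1 peak 75 bp upstream of its start, with a −log10 p of 7.85, and was the gene lost from the 21 when only peaks with a −log10 p of at least 8 were counted. TMOD1, which caps the slow-growing end of actin filaments, had no peak, and the nearest LSD1 peak lay 165310 bp away.

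Among the blood group carriers, RHAG and ERMAP had LSD1 peaks, and KEL and XK, which form 1 complex in the membrane, had none. These are 2 of 4 genes (50%, interval 15.0 to 85.0), and the length-matched share of 24.6% lies within the interval. RHAG, the glycoprotein that brings the Rh proteins to the surface, had a pair of LSD1 peaks far upstream, 9687 and 8491 bp from its start. The first had 7.90-fold enrichment (−log10 p 16.3), the other 7.15 and 12.8. ERMAP, which carries the Scianna antigens, had its LSD1 peak in intron 1, 8415 bp from the start of the canonical transcript and 23 bp from another start of the gene, with 9.23-fold enrichment (−log10 p 16.2). The RHAG and ALAD peaks lay in the outer part of the 10 kb window, and RHAG and ALAD had no LSD1 peak when the window was 5 kb.

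**Figure D3:**
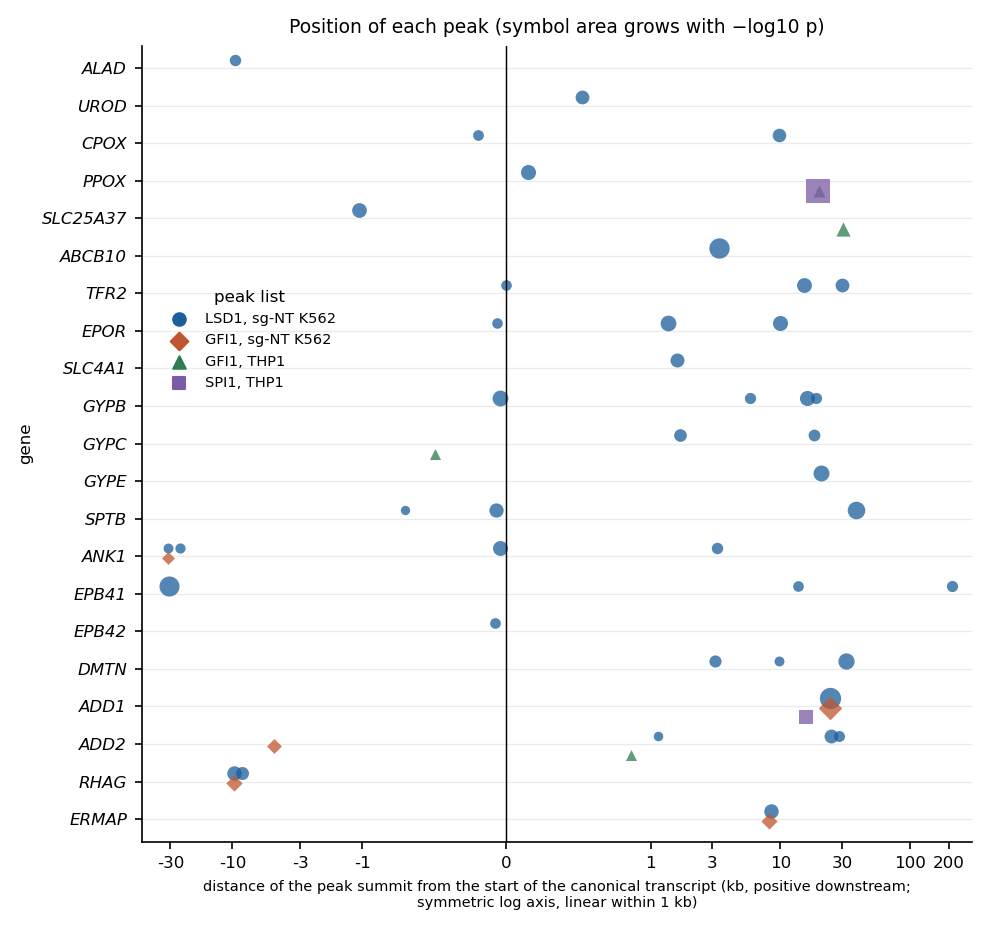
Distance of each peak summit from the start of the canonical transcript (kb, horizontal axis, linear within 1 kb and logarithmic beyond, positive values downstream) for the 21 genes with a peak. Circles are LSD1 and diamonds GFI1 peaks of sg-NT K562 cells, triangles GFI1 and squares SPI1 peaks of THP1 cells, and the symbol area grows with −log10 p. The GFI1 diamonds lie beside an LSD1 circle at ANK1, ADD1, RHAG and ERMAP, and without one at ADD2, 4789 bp upstream.

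The LSD1 peaks were placed more often in the first intron than LSD1 peaks of other genes, a comparison chosen after the values were seen. Of the 42 peaks, 31.0% lay in intron 1 more than 1000 bp from a start, against 11% over all protein-coding genes. A further 33.3% lay within 1000 bp of a start of the gene, against 25.6%. In the flanks beyond 1000 bp lay 21.4%, against 36.2%, and elsewhere in the gene 14.3%, against 27.2%. For 35 of the 42 peaks, the nearest start of a protein-coding gene was that of the gene they were counted for. Counting each peak only for the gene of the nearest start left 20 of the 29 genes with an LSD1 peak, against 17.1% of all protein-coding genes, and ALAD was lost.

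GFI1 in sg-NT K562 cells was called at ADD1, RHAG, ERMAP, ADD2 and ANK1, which encode 3 proteins of the skeleton and 2 blood group carriers. ADD1 had the strongest GFI1 peak, at chr4:2867804-2868281, with 11.8-fold enrichment (−log10 p 22.3), from 20 fragments over a background of 0.777. It ranked 57 of the 498 GFI1 peaks. The GFI1 summit at ADD1 lay 24100 bp from the start and the LSD1 summit 24135 bp, so the summits were nearly the same. The other 4 GFI1 peaks were weaker. RHAG had a GFI1 peak of 13 fragments at chr6:49646265-49646544, with 5.91-fold enrichment (−log10 p 9.58), over the farther of its LSD1 peaks. ERMAP had one of 10 fragments at chr1:42825176-42825641, with 6.36-fold enrichment (−log10 p 9.39). These were both above a −log10 p of 8, unlike those at ADD2 and ANK1. ADD2 had its GFI1 peak at chr2:70772619-70773067, 4789 bp upstream of the start, with 5.23-fold enrichment (−log10 p 7.58). At ANK1, the GFI1 peak lay 31363 bp upstream of the canonical start, with a −log10 p of 5.10 from 5 fragments, and ranked 496 of 498. The median −log10 p of the 5 was 9.39, beside 11.3 for the GFI1 peaks in the window of any protein-coding gene.

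Of these 5 GFI1 peaks, 4 (80.0%) overlapped an LSD1 peak by 1 bp or more, against 78.3% of all GFI1 peaks of sg-NT K562 cells. The exception was ADD2, whose nearest LSD1 peak lay in intron 1. Of the 42 LSD1 peaks at the gene set, 4 (9.52%) shared a base with a GFI1 peak, against 5.96% of all LSD1 peaks. The remaining 38 LSD1 peaks, among them those of ABCB10, EPB41 and SPTB, had no GFI1 peak at this depth. The paper puts the low number of GFI1 sites in K562 cells down to technical limits of the antibodies at hand.

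In sg-LSD1 K562 cells, none of the 5 GFI1 sites was called again. Of the 498 GFI1 peaks called in sg-NT cells, 10.2% shared a base with a GFI1 peak of sg-LSD1 cells. Stronger peaks were called again more often. When the 498 peaks were divided by −log10 p into 4 bins of 124 or 125 peaks, the strongest bin, which starts at a −log10 p of 16.2 and holds ADD1, had 31 of 125 called again (24.8%, interval 18.1 to 33.0). In the next bin, which holds none of the 5, the share was 7.26%. RHAG and ERMAP fell in a bin with 4.80% called again, and ADD2 and ANK1 in the weakest, with 4.03%. Averaged over the bins of the 5 peaks, the share called again was 8.49%. The sg-LSD1 library held 160 GFI1 peaks in all, and its lowest recurring background (found at 5 peaks or more) was 0.547 fragments, against 0.451 in the sg-NT GFI1 library. Of the GFI1 peaks of sg-LSD1 cells, the one nearest to any of the 29 genes lay 296669 bp from EPB41. LSD1 itself was not precipitated from sg-LSD1 cells in the lists analysed here, so LSD1 at these sites cannot be compared between the cultures.

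In THP1 cells, GFI1 was called at PPOX, SLC25A37, GYPC and ADD2, and SPI1 at PPOX and ADD1. The strongest THP1 peak in these windows was the SPI1 peak at chr1:161185918-161186364 in the downstream flank of PPOX. It had 23.2-fold enrichment (−log10 p 53.0) and ranked 27 of the 1846 SPI1 peaks, and a GFI1 peak with a −log10 p of 10.2 covered it. Its summit lay 19676 bp from the start of PPOX and 8134 bp from that of B4GALT3, so it was not counted for PPOX under the nearest start. SLC25A37 had a GFI1 peak in intron 1, 30397 bp from its start, with 9.37-fold enrichment (−log10 p 15.7). GYPC had one 497 bp upstream of its start, with a −log10 p of 8.69. The SPI1 peak of ADD1 lay in intron 1 at chr4:2859532-2859823, 15841 bp from the start, with 9.0-fold enrichment (−log10 p 14.7). It lay upstream of the ADD1 site that LSD1 and GFI1 shared in K562 cells and did not overlap it. ADD2 was the only gene with a GFI1 peak in both lines, but at different places. In THP1 cells its GFI1 peak lay in intron 1, 868 bp from the start, with a −log10 p of 8.48, and overlapped a K562 LSD1 peak whose summit lay 1146 bp from the start. Of the 4 GFI1 peaks of THP1 cells at these genes, 1 overlapped an LSD1 peak of K562 cells, as did 8.70% of all GFI1 peaks of THP1 cells.

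GATA cores were common under the LSD1 summits of these genes. In the 100 bases around the summit, AGATAA or TGATAA occurred on either strand at 18 of 42 LSD1 peaks (42.9%, interval 29.1 to 57.8), against 21.7% of all LSD1 peaks. Counted among the 42 were the GYPB and GYPE peaks, whose summit sequences occur 2 or 3 times in the genome. A GATA core occurred at both of these genes, so the peaks are not all independent. The core CCNCNCCC, which KLF1 binds, occurred at 12 of 42 (28.6%, interval 17.2 to 43.6), against 17.9%. The GFI1 core AATCAC occurred at 1 of 42 (2.38%), the ADD1 site, against 5.18% of all LSD1 peaks. The ETS core GAGGAAGT, which SPI1 binds, occurred at none, against 1.02%. A match of letters is a description of the reference sequence and does not show that a factor was bound. Of the 21 genes with an LSD1 peak, 14 had a GATA core under at least 1 of them, namely CPOX, PPOX, TFR2, EPOR, the 3 glycophorin genes, SPTB, EPB41, EPB42, DMTN, ADD1, RHAG and ERMAP. Of the 5 GFI1 peaks of sg-NT K562 cells, 3 (ADD1, RHAG and ADD2) held a GATA core (60%, interval 23.1 to 88.2). The share over all GFI1 peaks of these cells, 35.9%, lies within the interval. In 50 bases, 1 of the 5 held one (20%), beside 19.5% of all GFI1 peaks, and in 200 bases 4 (80%), beside 55.8%. In THP1 cells, 0 of the 4 GFI1 peaks at these genes held a GATA core, where 7.48% of all GFI1 peaks of THP1 cells did.

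The roles were set beside lists of related genes. Among 25 other genes of heme and iron handling, 11 had an LSD1 peak (44%, interval 26.7 to 62.9), against a length-matched 24.0%. Among 24 other genes of the red cell surface and membrane, 13 had one (54.2%, interval 35.1 to 72.1), against 25%. Among 19 paralogs that serve in other cells, such as SPTBN1 and ANK2 in place of SPTB and ANK1, 6 had one (31.6%, interval 15.4 to 54.0), against 27.4%. The differences between these lists and the 29 genes were not tested. GFI1 peaks of sg-NT K562 cells were called at BLVRA, FLVCR1, RHD, RHCE, BSG and CR1 of the related genes, and at 0 of the 19 paralogs. These are 2 of 25, 4 of 24 and 0 of 19 genes, beside length-matched shares of 2.10%, 2.23% and 2.76%. In sg-LSD1 cells, 0 genes of the 3 lists had a GFI1 peak, where the length-matched shares lay between 0.547% and 1.10%.

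**Figure D4:**
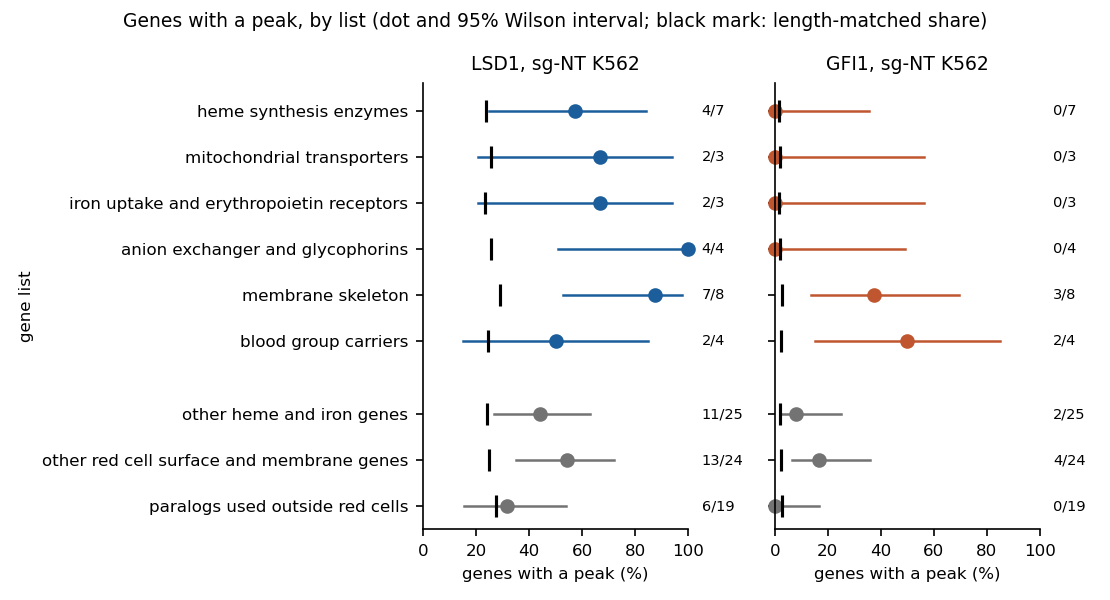
Share of genes with an LSD1 peak (left) or a GFI1 peak (right) in sg-NT K562 cells (%, horizontal axis) for the 6 roles within the gene set and, in grey, 3 lists of related genes. Dots are shares, lines 95% Wilson intervals, black marks the length-matched share of all protein-coding genes, and numbers the genes with a peak of all genes in the list. LSD1 peaks were called at 7 of 8 genes of the membrane skeleton and at 6 of 19 paralogs.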

How the data were processed

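Called ChIP-seq peaks of 5 libraries were used: LSD1 and GFI1 in sg-NT K562 cells, GFI1 in sg-LSD1 K562 cells, and GFI1 and SPI1 in THP1 cells. Groups were taken from the sample labels. Input libraries and murine H3K4me1 libraries were not analysed here. According to the methods and the submitters' processing notes, the authors trimmed reads (Trim Galore 0.6.1), aligned them to GRCh38 (Bowtie2 2.5.4), removed duplicates (Picard 3.1.0) and used MACS2 2.2.9.1 to call peaks per library (p threshold 1e-05), leaving out blacklisted regions. Whether an input served as control in MACS2 is not given in the sources used here. The deposited fold is the ratio of pileup to local background at a peak's summit. The p-value and q-value were deposited as −log10 values. The deposited score is a multiple of the −log10 p and was not used.

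The 29 genes and all lists of related genes were chosen with earlier results of these data known. A gene counted as having a peak when a peak shared at least 1 bp with its body or 10 kb on either side. For the length-matched share, all 20033 protein-coding genes of GENCODE release 44 were divided into 20 bins of equal size by length, and the share of genes with a peak was averaged over the bins of the listed genes. No random genes were drawn. Peaks of different lists counted as overlapping from 1 bp on. Read totals were not at hand, so fragments over a summit were solved from fold and −log10 p with the MACS2 pseudocount of 1. This gave a whole number within a −log10 p of 0.01 for 100% of the peaks of each list, with a median of 11 to 13 fragments per list, so weak sites can be missed. Shares have 95% Wilson intervals.

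All 29 genes were accounted for, with the strongest peak per list, and genes with a peak in at least 2 lists in full. Of each list of related genes, those with a GFI1 peak in K562 cells were named, or otherwise the 3 with the strongest LSD1 peak, of which 1 is not reported here. Sequence came from the GRCh38 reference, 100 bases around a summit, without chromosome 8 and without annotated UTRs. Where LSD1 and GFI1 windows overlapped, the GFI1 window is shown. Alternatives were other p and q limits, windows, overlaps, bins and motif windows. The counting was tested on simulated data. Python 3.11.15, numpy 2.4.6, scipy 1.17.1 and matplotlib 3.10.9 were used.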

Additional observations from a re-analysis of the deposited data

How the results depend on the processing

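Of 74 values recomputed under another setting, 58 stayed within the limit set for them (counts within 1.5 times the reported count, shares of motifs within the reported interval), and 16 did not. For LSD1, the count of 21 genes fell to 12 when only summits within 1000 bp of a start were counted, against a length-matched 9.73%, and lay between 18 and 22 under the other planned settings. The 18 genes (62.1%) with the gene body only stood beside a length-matched 16.4%. With 50 kb on either side, the 22 genes (75.9%) stood beside a length-matched 42.8%, so the excess was smaller there. For GFI1 in sg-NT K562 cells, 3 genes remained at a −log10 p of at least 8, 3 with the gene body only and 1 with summits within 1000 bp of a start, against 5 reported, while the length-matched share fell to 1.57%, 1.32% and 0.337%. For GFI1 in sg-LSD1 cells, the count was 0 under every setting run. For GFI1 in THP1 cells, the count of 4 became 2 with the gene body only, 7 (24.1%) with 50 kb on either side and 2 near a start, beside length-matched shares of 9.45%, 27.5% and 4.97%. For SPI1, the count of 2 became 1 with the gene body only, 1 with 5 kb, 5 (17.2%) with 50 kb, 1 with the nearest start only and 0 near a start, beside length-matched shares of 5.06%, 6.35%, 15.8%, 5.33% and 1.32%. The single GFI1 peak of THP1 cells shared with LSD1 and the single one shared with SPI1 were both 0 with summits at most 200 bp apart, and the former was also 0 with −log10 p limited to 8 and above. The share of LSD1 summits with a GATA core was 23.8% in 50 bases against 42.9% in 100, beside 11.6% and 21.7% of all LSD1 peaks. In 200 bases, the share was 50%, beside 34.8% of all LSD1 peaks. Leaving out chromosome X, or GYPB and GYPE, was chosen after seeing the data, and changed the LSD1 count to 21 of 27 and 19 of 27.

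With 1 library per condition, no spread between replicates is known. Binding below the peak threshold cannot be seen in called peaks. No paired analysis was possible because each condition analysed here had 1 library and no test was made.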

Other observations

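The related genes with a GFI1 peak in sg-NT K562 cells act in heme breakdown, heme export and the red cell surface. Each of these 6 GFI1 peaks overlapped an LSD1 peak, as did 78.3% of all GFI1 peaks of sg-NT K562 cells. RHD and RHCE, which carry the Rh antigens on the complex that RHAG completes, had their GFI1 peaks at nearly the same place in intron 1, 7513 and 7425 bp from the start. The RHD peak had 10.3-fold GFI1 enrichment (−log10 p 17.5), with an LSD1 −log10 p of 35.4. The RHCE peak had 3.75 and 5.44, with an LSD1 −log10 p of 24.2. The genes are near-identical neighbours, so reads of one can be placed on the other. CR1, the complement receptor of red cells, had a GFI1 peak in intron 46 with 10.5-fold enrichment (−log10 p 19.5). BSG, which carries the Ok antigen, had one in intron 1 with 8.23 and 13.7.

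BLVRA, which reduces biliverdin after heme breakdown, had its GFI1 peak 8167 bp upstream of the start with 5.23-fold enrichment (−log10 p 7.31), beside an LSD1 −log10 p of 30.8. FLVCR1, a heme exporter, had a GFI1 peak 440 bp upstream of its start with 6.46 and 9.39. Of these 6 GFI1 peaks, none was called in sg-LSD1 cells, where only 10.2% of all GFI1 peaks of sg-NT cells were called again. Among the paralogs, SPTBN4 and EPB41L1 had LSD1 peaks with a −log10 p of 25.5 and 18.2. The SPTBN4 peak lay in its upstream flank and in intron 1 of BLVRB, 582 bp from the start of that gene.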
